A study of Mus musculus with 16 samples.

Results

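Side population cells and Sca1-positive stromal cells are both routes by which candidate cardiac progenitors have been taken from the adult mouse heart, and the comparison described here sets the one directly against the other. It rests on 5 of the 16 arrays of the series: 3 arrays of heart Sca1 cells and 2 arrays of heart side population (SP) cells. Both groups were chosen by the cell type named in their titles, and all 17710 named genes of the array entered. The heart Sca1 cells were sorted by flow cytometry from the heart for stem cell antigen 1 (Sca1) and for the lack of CD45, the common leukocyte antigen, and of CD31, an endothelial antigen. The heart SP cells were taken by the efflux of the DNA dye Hoechst 33342. Both came from C57BL/6 mice of a genotype labelled normal, and the sources used here do not state age, sex or treatment of the animals. The other 11 arrays held heart c-kit cells (3), marrow c-kit cells (3), marrow mesenchymal stem cells (MSC, 3) and cardiomyocytes (2). They served to estimate the spread of each gene and to show where else a gene was high.

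Sca1, encoded by Ly6a, is a small surface protein of blood stem cells that in the heart also marks mesenchymal cells, many of which carry the receptor Pdgfra and the transcription factor Tcf21 and lie close to fibroblasts. The side population is defined by function: its cells expel the dye through ABC transporters, chiefly Abcg2 and the P-glycoproteins Abcb1a and Abcb1b, and in the heart it is known as a mixture that can hold mesenchymal and endothelial cells. The SP sort, as labelled, names no surface antigen, so the groups differ in the way they were gated as well as in name. The labels list the same growth entry, Matrigel-coated dishes with mTeSR medium, for all 16 samples. They do not say whether the replicates came from separate animals, so the p-values reflect only how far these arrays spread, and that spread may be technical. In bulk samples of this kind, fewer cells of a type and less RNA per cell cannot be told apart.

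The SP arrays were dim. The median spot intensity, in Cy5 units as the scanner recorded them, was 100, 107 and 109 on the heart Sca1 arrays, against 15 and 22 on the heart SP arrays, within a range of 15 to 200 over the 16 arrays. Heart c-kit replicate 2 was as dim, with a median of 18. The arrays were therefore brought to a common scale by quantile normalisation, and differences are given in log2 units on that scale, heart Sca1 minus heart SP, with the SE of the fit. Spot intensities are given as they stood before scaling, and a spot at the single repeated value that fills the low end of each array is said to be at the fill value. The heart Sca1 arrays correlated across genes at 0.910 to 0.917 with each other. The SP arrays correlated at 0.748 with each other and at 0.757 to 0.776 with the heart Sca1 arrays, so that an SP array resembled its partner no more than it resembled the other group. Genes are not independent replicates, and these coefficients are descriptions.

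Heart Sca1 cells carried more of the cardiac contractile transcripts Tnni3, Actc1 and Tcap, the last 2 with 1 SP spot each at the fill value. Of 13 sarcomere genes measured, 10 were not called and 4 had a difference below 0. The secreted factors Cxcl14, Bmp6 and Inhbb and the steroid enzyme Hsd11b1 were also higher in heart Sca1 cells. Heart SP cells carried more of Gpd1 and Csf2, of the stress enzyme Hmox1 and of the tendon factor Scx. The Hmox1 call ended without any 1 heart Sca1 array, and its highest mean was in heart c-kit cells. The stromal genes Dcn, Col3a1 and Tcf21 stood high in both. Pdgfra and Col1a1, also stromal, fell far below the heart Sca1 arrays on 1 SP array each (spots of 33 and 6). Over all genes, 1210 of 17710 genes (6.83%) passed an adjusted p of 0.05 in limma, with 819 (4.62%) higher and 391 (2.21%) lower in heart Sca1 cells. Such genes are said to be called. The unadjusted p was under 0.05 for 4108 genes. The heart Sca1 and heart SP arrays did not overlap for any of the 1210 called genes, nor for 43.2% of all genes tested. The median difference was 4.68 among the higher genes and -3.01 among the lower ones, against -0.07 over all genes.

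**Figure D1:**
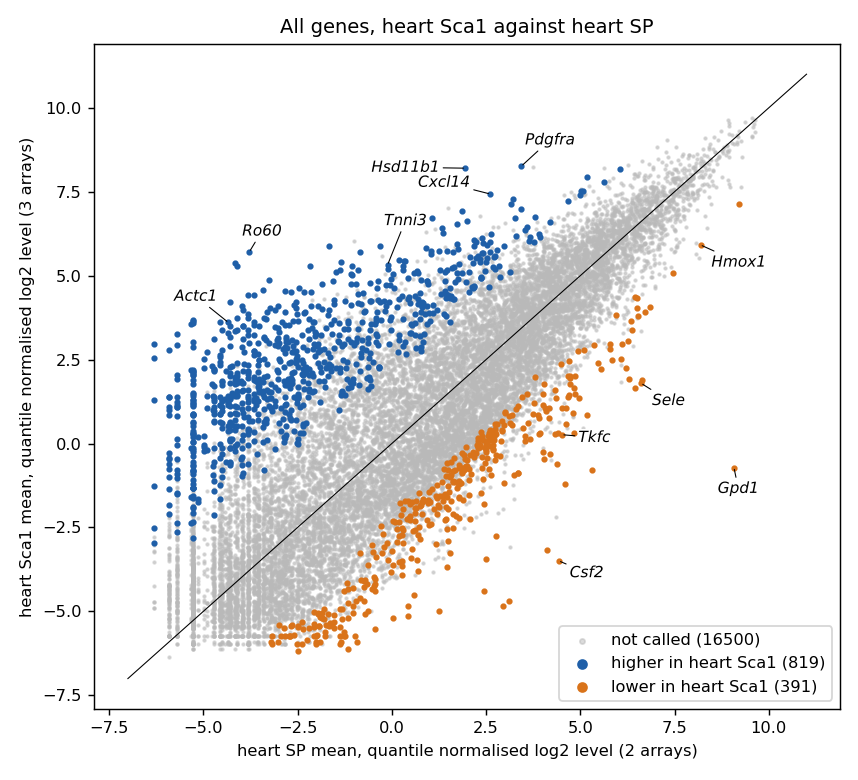
Mean quantile normalised log2 level of each of 17710 genes on the 3 heart Sca1 arrays (vertical axis) and the 2 heart SP arrays (horizontal axis), with the line of equal level. The 819 genes called higher in heart Sca1 cells spread far to the left, where the SP mean is low, and Gpd1 and Csf2 stand far below the line among the 391 called lower.

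The split between higher and lower genes depended on the scale. Of the called genes, 67.7% were higher in heart Sca1 cells after quantile normalisation, against 83.2% with the deposited values unchanged (866 higher, 175 lower) and 27.7% with only the array medians aligned (472 higher, 1230 lower). Those settings moved the median of all genes to -0.23 and -1.29, so which group had more genes on its side cannot be read from these arrays. On all 4 scales tried, cyclic loess included, 466 of the 819 higher genes (56.9%) and 116 of the 391 lower genes (29.7%) were called in the same direction. Many of the higher genes had low SP spots, which picking genes higher in heart Sca1 cells favours. Both SP spots lay under their own array's median for 573 of the 819 higher genes (70.0%), and at least 1 of them was at the fill value for 319. Over all probes, 13.76% were at the fill value on SP replicate 1 and 9.935% on SP replicate 2. Whether the dimness of the SP arrays bore on the sizes was not tested. When all values below the 50th percentile were set to it, 1145 genes were called (6.47%), of which 571 (3.22%) were higher and 574 (3.24%) lower, among them 401 of the 819 and 235 of the 391. Leaving out 1 heart Sca1 array gave 556 to 660 called genes, with 439 to 512 higher and 117 to 150 lower. The lowest counts, 556, 439 and 117, came without heart Sca1 replicate 3. Fits without 1 SP array set 3 arrays against 1. They hold no spread among SP arrays, so a call they keep is no sign that it is stable. The 5 arrays fitted alone gave 176 called genes, 161 higher and 15 lower. Of the called genes described below, aligning medians ended the calls of Pdgfra, Aldh1a2, Vwf and Slc25a20 (limma adjusted p of 0.0518 to 0.181), and the deposited values those of Pdgfra, Aldh1a2, Slc25a20, Egr3 and Gclc (0.0629 to 0.161). Cyclic loess ended that of Pdgfra (0.0515). Setting low values to the 50th percentile ended those of Pdgfra, Aldh1a2, Vwf, Cd68, Csf2ra, Wnt5b and Acsl1 (0.0535 to 0.574).

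**Figure D2:**
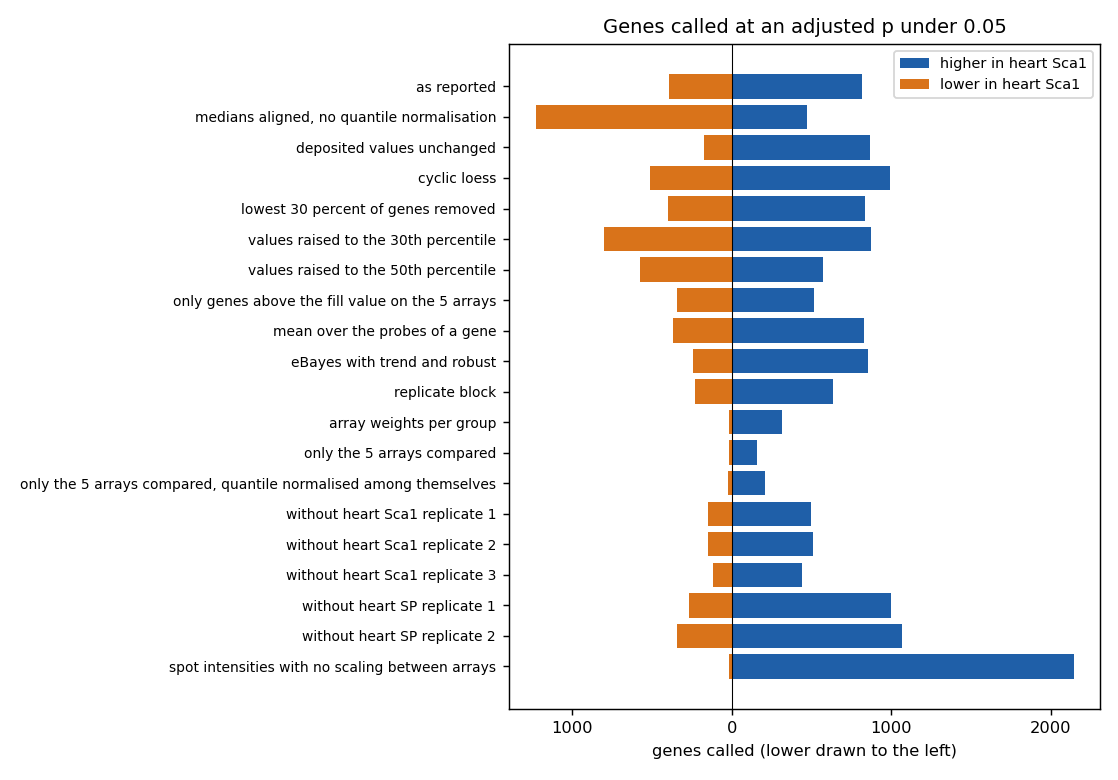
Number of genes called at an adjusted p under 0.05 under the reported fit, 18 other settings planned and spot intensities with no scaling, with genes higher in heart Sca1 cells drawn to the right and lower ones to the left. The lower side runs from 15 to 1230 genes and the higher side from 161 to 2144.

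Tnni3, Actc1 and Csf2 are members on which the results turn, and Sele is a gene lower in heart Sca1 cells that is treated further on. Their promoters are shown because 2 of these genes move one way and 2 the other. The sequences run from 250 bases before to 50 bases after the start site, from RefSeq on GRCm38.p6: chr7:4522479-4522778 on the minus strand for Tnni3, chr2:114052826-114053125 on the minus strand for Actc1, chr11:54249850-54250149 on the minus strand for Csf2 and chr1:164047984-164048283 on the plus strand for Sele. Capitals mark matches, on either strand, to TATAAA (the letters of the TATA box), to the CArG box bound by serum response factor and to TGANTCA (the AP-1 site). Matches were by letters alone, whatever the distance from the start site, and no matches overlapped.
Tnni3: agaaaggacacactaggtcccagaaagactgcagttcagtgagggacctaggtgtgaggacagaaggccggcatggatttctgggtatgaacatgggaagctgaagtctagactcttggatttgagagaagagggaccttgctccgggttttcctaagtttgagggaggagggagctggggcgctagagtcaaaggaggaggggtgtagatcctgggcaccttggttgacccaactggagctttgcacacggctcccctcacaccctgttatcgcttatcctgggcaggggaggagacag
Actc1: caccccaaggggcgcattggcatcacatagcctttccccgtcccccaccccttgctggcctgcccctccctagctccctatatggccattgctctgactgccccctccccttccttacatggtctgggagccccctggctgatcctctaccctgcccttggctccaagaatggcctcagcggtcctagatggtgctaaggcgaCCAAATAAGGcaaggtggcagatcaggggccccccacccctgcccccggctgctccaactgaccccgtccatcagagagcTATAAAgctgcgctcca
Csf2: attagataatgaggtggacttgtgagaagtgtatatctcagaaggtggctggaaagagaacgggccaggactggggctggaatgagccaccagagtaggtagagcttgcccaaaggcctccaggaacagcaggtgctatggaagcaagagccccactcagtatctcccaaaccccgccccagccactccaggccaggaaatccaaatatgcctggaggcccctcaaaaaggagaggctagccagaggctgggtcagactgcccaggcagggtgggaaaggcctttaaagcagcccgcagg
Sele: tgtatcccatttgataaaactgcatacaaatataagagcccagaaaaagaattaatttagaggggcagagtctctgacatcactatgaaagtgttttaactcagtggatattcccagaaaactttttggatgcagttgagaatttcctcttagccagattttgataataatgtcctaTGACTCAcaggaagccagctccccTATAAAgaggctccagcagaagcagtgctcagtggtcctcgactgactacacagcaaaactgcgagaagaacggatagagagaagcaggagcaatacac
The Actc1 promoter held a CArG box that begins 47 bases before the start site, and a TATAAA 33 bases after it. The Sele promoter held a TGANTCA that begins 73 bases before the start site and a TATAAA 49 bases before it. The other pair of windows held none of these letters. Among 32851 promoters of the same length, 13.6% held TATAAA, 1.63% the CArG box and 7.81% TGANTCA.

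Of the contractile genes, Tnni3, which encodes cardiac troponin I, the inhibitory subunit of the troponin complex, had spot intensities of 3013, 5730 and 4915 on the heart Sca1 arrays, against 13 and 25 on the heart SP arrays. The groups did not overlap, and the heart Sca1 level was also above that of every group but cardiomyocytes. The normalised log2 level in heart Sca1 cells was 5.32 ± 0.59 (SD, n = 3), against -0.11 ± 0.34 in heart SP cells (SD, n = 2), while cardiomyocytes had 7.89 ± 0.30, heart c-kit cells 3.58 ± 0.62, MSC 1.87 ± 0.30 and marrow c-kit cells 2.14 ± 0.57. The difference was 5.43 ± 0.60 (SE; limma adjusted p = 0.000208), and Tnni3 was called under all 18 other settings planned.

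Actc1, cardiac alpha-actin of the thin filament, had spots of 596, 2140 and 2218 on the heart Sca1 arrays, against 3 and the fill value on the heart SP arrays. Tcap, a titin cap protein of the Z-disc, had 554, 1132 and 749 on the heart Sca1 arrays, against the fill value and 9 on the heart SP arrays. Neither gene overlapped between the groups, and the SP spots of both lay at the low end of the scanner's range. The differences were 7.95 ± 1.59 for Actc1 (limma adjusted p = 0.0106) and 6.22 ± 1.23 for Tcap (0.0101). They came to 3.68 and 2.74 with values below the 50th percentile set to it, still called, so the sizes rest on spots near the floor. Actc1 was not called with array weights per group (limma adjusted p = 0.181) or with the 5 arrays fitted alone (limma adjusted p = 0.0523). Without SP replicate 2 the adjusted p of Actc1 was 0.0575, and without SP replicate 1 that of Tcap was 0.0706.

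The sarcomere list did not move as a whole. Of its 24 genes 13 were measured, and 3 were higher, none lower and 10 not called (23.1% called, against 6.83% of all genes). Its median was 0.67 against -0.07 over all genes. Tnnt2, cardiac troponin T, had 1942, 3165 and 2117 on the heart Sca1 arrays, against 4338 and 4452 on the heart SP arrays, a difference of -1.59 ± 1.10 that was not called (limma adjusted p = 0.414, 95% interval -3.95 to 0.78). Tnnc1, the calcium-binding troponin C, differed by 0.79 ± 0.90 (limma adjusted p = 0.642). Tnni1, the slow skeletal troponin I, differed by 0.80 ± 0.85 (limma adjusted p = 0.613). The 4 troponin genes measured thus gave values on both sides of 0, with Tnni3 alone called. Outside this list, Xirp1, an actin-binding protein of intercalated discs, was lower in heart Sca1 cells, with 390, 130 and 288 against 1383 and 1388 on the heart SP arrays (-3.57 ± 0.73, limma adjusted p = 0.0116). Of the 9 cardiac stress genes measured, Xirp1 was the only one called (11.1%, against 6.83% of all genes).

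**Figure D3:**
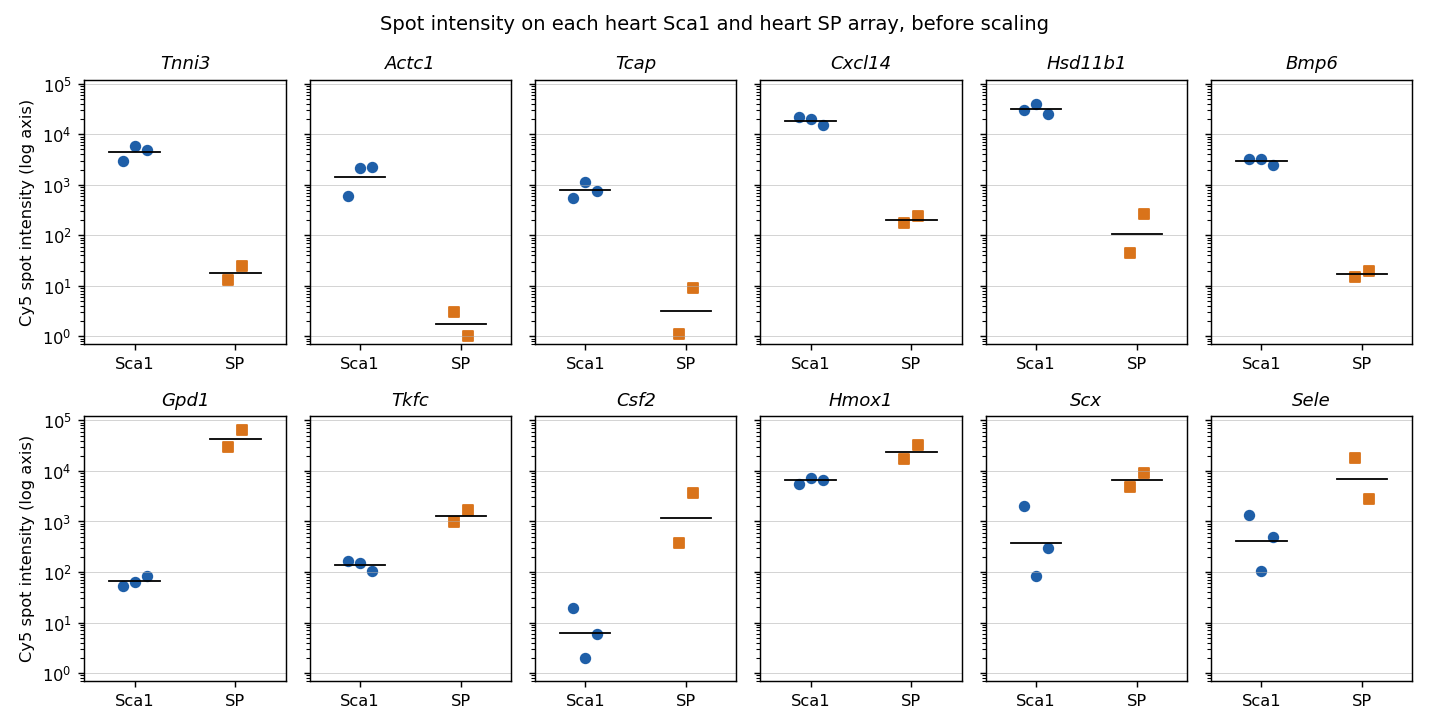
Cy5 spot intensity, on a log axis and before any scaling, on each heart Sca1 array (circles, left) and heart SP array (squares, right) for 12 genes, with the geometric mean as a line and fill values drawn at their deposited height. In the top row every heart Sca1 spot is above every SP spot, as with Tnni3 at 3013 to 5730 against 13 and 25, and in the bottom row the order is turned, as with Tkfc at 107 to 164 against 970 and 1678.

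Of the genes that mark stromal cells, Dcn, Col3a1 and Tcf21 were present in both groups. Dcn, the proteoglycan decorin of connective tissue, had 55918, 45092 and 55510 on the heart Sca1 arrays, against 42098 and 51397 on the heart SP arrays, a difference of -0.17 ± 0.86 (limma adjusted p = 0.934, 95% interval -2.03 to 1.69). Col3a1, a fibrillar collagen chain, had 3620, 2895 and 1755 on the heart Sca1 arrays, against 755 and 1305 on the heart SP arrays (0.29 ± 0.76, limma adjusted p = 0.86, 95% interval -1.35 to 1.92). Tcf21, a transcription factor of cardiac fibroblasts and their epicardial precursors, had a level in heart Sca1 cells of 4.67 ± 0.28 (SD, n = 3), against 3.88 ± 0.70 in heart SP cells (SD, n = 2). The heart c-kit level was -1.38 ± 3.75, the MSC level -4.34 ± 1.81, the marrow c-kit level -5.24 ± 1.70 and the cardiomyocyte level 0.65 ± 2.47. Dcn was high in cardiomyocytes too, at 8.15 ± 0.36, against 8.92 in heart Sca1 and 9.09 in heart SP cells. Col3a1 was lower in cardiomyocytes, at 1.05 ± 2.04, against 4.54 in heart Sca1 and 4.25 in heart SP cells. None of Tcf21, Col3a1 and Dcn was called, and the intervals, for Tcf21 -2.96 to 4.54 (95%), are too wide to show that the groups were alike.

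Pdgfra, the receptor of platelet-derived growth factor that marks cardiac stromal cells, divided the SP arrays. It had 32303, 36617 and 29952 on the heart Sca1 arrays, against 5550 and 33 on the heart SP arrays. It was called at 4.82 ± 1.26 (limma adjusted p = 0.0365), but leaving out any of 4 arrays ended the call, with an adjusted p of 0.08, 0.0869 and 0.0908 without heart Sca1 replicates 1, 2 and 3 and of 0.245 without SP replicate 2. Col1a1, the other main fibrillar collagen, showed the reverse order of the SP arrays, with 2312, 2564 and 1926 on the heart Sca1 arrays, against 6 and 569 on the heart SP arrays (3.59 ± 1.13, limma adjusted p = 0.0712). Of 30 fibroblast and matrix genes measured, Pdgfra was the only one called (3.33%, against 6.83% of all genes). The median of the list was 0.13, which is 0.19 above the median of all genes, and with medians aligned it lay 0.70 below it (-0.70). The direction of this list therefore depended on the scale.

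The genes of the gates could be read only in part. Ptprc, which encodes CD45, had 146, 61 and 863 on the heart Sca1 arrays, against 13 and 8 on the heart SP arrays, and was not called (2.13 ± 1.05, limma adjusted p = 0.241). A second Ptprc probe gave -1.01, so the probes disagree in sign. Pecam1, which encodes CD31, had 360, 1306 and 4065 on the heart Sca1 arrays, against 834 and 3062 on the heart SP arrays. The groups overlapped (-1.33 ± 1.25, limma adjusted p = 0.559), and its other probes gave -4.25 and -0.93. Ly6a was not analysed here, so the positive marker of the Sca1 sort has no value.

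None of the 11 ABC transporters measured was called, against 6.83% of all genes. A list this short can hold no called gene at that share. Abcg2 had 1533, 1745 and 1667 on the heart Sca1 arrays, against 23 and 1323 on the heart SP arrays, which put 1 SP array close to the heart Sca1 arrays and the other far below (1.32 ± 0.87, limma adjusted p = 0.386, 95% interval -0.55 to 3.18). The Abcg2 difference was 3.23 without SP replicate 2, the brighter of the pair for this gene, and -0.59 without SP replicate 1. Each of these values is against a single SP array. Abcb1a had 75, 120 and 401 on the heart Sca1 arrays, against 60 and 593 on the heart SP arrays (-1.99 ± 0.90, limma adjusted p = 0.199), and Abcb1b differed by 0.57 ± 0.91 (0.753). For both P-glycoprotein genes the SP arrays stood apart from each other.

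Markers of endothelial cells and macrophages moved with 1 heart Sca1 array. The mean normalised level of the 26 endothelial genes measured was 1.58, 2.27 and 4.86 on the heart Sca1 arrays, against 1.85 and 1.87 on the heart SP arrays. That of the 18 macrophage and leukocyte genes was -0.76, -0.68 and 2.67 on the heart Sca1 arrays, against -1.16 and -1.39 on the heart SP arrays. In both lists heart Sca1 replicate 3 stood above the other 4 arrays, and the calls that end without it are given with the genes below.

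Of the macrophage list, Laptm5, a lysosomal membrane protein of blood cells, and Cd68, a macrophage scavenger receptor, were higher. The other 16 genes were not called (median 2.08, with 11.1% of the list called against 6.83% of all genes). Laptm5 had 360, 1437 and 2885 on the heart Sca1 arrays, against 5 and 4 on the heart SP arrays (6.30 ± 0.79, limma adjusted p = 0.000467, called without any 1 of the 3 heart Sca1 arrays). Cd68 had 67, 538 and 524 on the heart Sca1 arrays, against 5 and the fill value on the heart SP arrays (5.20 ± 1.02, limma adjusted p = 0.00951; 0.0636 without SP replicate 2). The level of Laptm5 in heart Sca1 cells, 3.32 ± 1.64, was below that of the other groups outside the SP cells, among them MSC at 9.15 ± 0.12 and heart c-kit cells at 6.09 ± 0.46.

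Vwf, von Willebrand factor, was the only endothelial gene called of 26, whose median was 0.92 (3.85% called, against 6.83% of all genes). It had 112, 102 and 2073 on the heart Sca1 arrays, against the fill value and 7 on the heart SP arrays (5.22 ± 1.29, limma adjusted p = 0.0281). The call ended without heart Sca1 replicate 3 (0.0811) and without SP replicate 1 (0.158). Sele, which encodes E-selectin, an adhesion molecule of activated endothelium, and is not on that list, ran the other way, with 1353, 103 and 487 on the heart Sca1 arrays, against 18242 and 2745 on the heart SP arrays (-4.82 ± 1.12, limma adjusted p = 0.0221). The adjusted p of Sele was 0.0715 without heart Sca1 replicate 2, 0.0548 without replicate 3 and 0.142 without SP replicate 1. Both genes thus rest on single arrays.

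Several secreted signals stood apart between the groups. Cxcl14, a chemokine of epithelia and stroma, was among the brightest, with 21926, 19602 and 14953 on the heart Sca1 arrays, against 175 and 236 on the heart SP arrays. The groups were far apart and tight within themselves (4.82 ± 1.03, limma adjusted p = 0.0143), and a second probe gave 5.23. Ccl11, the eosinophil attractant eotaxin, had 3179, 3457 and 3021 on the heart Sca1 arrays, against 22 and 175 on the heart SP arrays (3.43 ± 0.68, limma adjusted p = 0.00996; 0.0635 without SP replicate 1). Ccl7, a monocyte attractant, was lower in heart Sca1 cells, with 765, 764 and 558 against 2757 and 5702 on the heart SP arrays (-3.35 ± 0.85, limma adjusted p = 0.0329), though no call was left when any 1 of the 5 arrays was dropped (0.0701 to 0.104). Of 19 chemokines measured, 2 were higher, 1 lower and 16 not called (15.8% called, against 6.83% of all genes), with a median of -0.24.

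Of the TGF-beta and BMP list, 2 of 23 measured genes were higher and none lower (8.70% called, against 6.83% of all genes), with a median of 0.03. Bmp6, a bone morphogenetic protein known for inducing the iron hormone hepcidin in liver, had 3206, 3296 and 2495 on the heart Sca1 arrays, against 15 and 20 on the heart SP arrays (4.87 ± 0.59, limma adjusted p = 0.000355). Inhbb, which encodes the beta B subunit of activin and inhibin, had 1017, 929 and 626 on the heart Sca1 arrays, against 3 and 9 on the heart SP arrays (5.37 ± 0.66, limma adjusted p = 0.000383; 2.84 with values below the 50th percentile set to it). Both were called under all 18 other settings. Outside the heart Sca1 cells, Bmp6 was high in heart c-kit cells (5.27 ± 0.46) and cardiomyocytes (4.99 ± 0.29) and near the SP level in both marrow groups (-0.05 ± 0.71 in c-kit cells, -0.29 ± 0.59 in MSC).

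Among 25 Wnt pathway genes, the ligands Wnt9a and Wnt5b were higher and 23 were not called (median 0.21, 8.0% called against 6.83% of all genes). Wnt9a had 7342, 3704 and 3362 on the heart Sca1 arrays, against 76 and 130 on the heart SP arrays (3.56 ± 0.67, limma adjusted p = 0.00786). Wnt5b had 358, 257 and 195 on the heart Sca1 arrays, against the fill value and 4 on the heart SP arrays (5.41 ± 0.75, limma adjusted p = 0.0011). Wnt5b, whose SP spots lay at the floor, came to 1.20 with values below the 50th percentile set to it and was no longer called there. Both genes were called whichever of the 3 heart Sca1 arrays was left out.

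Csf2, which encodes the granulocyte-macrophage colony stimulating factor, had 19, 2 and 6 on the heart Sca1 arrays, against 368 and 3583 on the heart SP arrays. The groups did not overlap, and the SP arrays differed about as much between themselves as the heart Sca1 arrays did. Its level was 4.43 ± 1.53 in heart SP cells (SD, n = 2), while heart Sca1 cells had -3.50 ± 1.59 (n = 3) and the other 4 groups had means of -2.95 to -5.41, at the low end of the scale. The difference was -7.93 ± 1.25 (limma adjusted p = 0.00264) and -4.50 with values below the 50th percentile set to it. With the 5 arrays fitted alone Csf2 was not called (limma adjusted p = 0.0609). The SP arrays were thus the only ones of the 6 groups with Csf2 signal well off the floor.

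Csf2ra, the alpha chain of the receptor for this factor, ran opposite to its ligand. It had 1123, 818 and 1038 on the heart Sca1 arrays, against 8 and 3 on the heart SP arrays (5.79 ± 1.30, limma adjusted p = 0.0184), with an adjusted p of 0.052, 0.0566 and 0.103 without heart Sca1 replicates 1 and 3 and without SP replicate 2. Csf2rb, the signalling chain of the same receptor, differed by -1.21 and was not called. Of 20 cytokine genes measured, Csf2 was lower, Csf2ra higher and 18 not called (10% called, against 6.83% of all genes), with a median of -1.07.

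Gpd1, the cytosolic glycerol-3-phosphate dehydrogenase that links glycolysis to triglyceride synthesis, gave the widest gap toward SP cells. It had 54, 63 and 83 on the heart Sca1 arrays, against 29300 and 65437 on the heart SP arrays, the last at the ceiling of the scanner, so the size is uncertain. The difference was -9.79 ± 1.68 (limma adjusted p = 0.00461), and Gpd1 was called under all 18 other settings. One further array was as bright: the level was 9.57 on cardiomyocyte replicate 1 and 0.71 on cardiomyocyte replicate 2, while the means of the other 3 groups were -0.18 to 1.45. None of the other 20 adipocyte and glycerolipid genes measured was called, with a median of -0.45 for the list (4.76% called, against 6.83% of all genes). Adipoq, the fat cell hormone adiponectin, had 13, 2 and 11 on the heart Sca1 arrays, against 2 and 10 on the heart SP arrays.

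Tkfc, a kinase of triose and dihydroxyacetone in fructose breakdown, was the other gene lower under every setting. It had 164, 149 and 107 on the heart Sca1 arrays, against 970 and 1678 on the heart SP arrays (-4.26 ± 0.79, limma adjusted p = 0.00698). Tkfc and Gpd1 both act on triose metabolites. With the spot intensities left unscaled, a setting chosen after seeing the data that works against the dim SP arrays, 2144 genes were higher and 15 lower, and Csf2, Gpd1 and Tkfc were among the 15. Others of the 15 were Lgi1, a secreted synaptic protein, with 31, 19 and 112 against 904 and 2072 on the heart SP arrays (-5.81 ± 0.73, limma adjusted p = 0.000467), and Prss35, a serine protease-like protein, with 78, 73 and 63 against 1289 and 944 (-5.01 ± 0.94, limma adjusted p = 0.00786). That the 15 had SP spots above all heart Sca1 spots before any scaling follows largely from how they were picked. The same order held for 260 of the 391 lower genes (66.5%), which were themselves picked for a higher SP level after scaling. The share over all genes is not given here, so these counts are descriptions.

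Scx, the transcription factor scleraxis of tendon and connective tissue progenitors, was also among the 15. It had 1997, 82 and 303 on the heart Sca1 arrays, against 4752 and 9250 on the heart SP arrays (-4.79 ± 1.01, limma adjusted p = 0.0135; 0.0501 without SP replicate 2). Its SP level of 6.46 ± 0.32 was close to that of MSC, 6.11 ± 0.27, and the other 4 groups had means of -1.68 to 1.91. Aldh1a2, the retinoic acid synthesising enzyme of epicardium, was the other gene of its list called. It had 16317, 9985 and 9076 on the heart Sca1 arrays, against 155 and 1001 on the heart SP arrays (3.44 ± 0.92, limma adjusted p = 0.0405). The call of Aldh1a2 ended without any 1 heart Sca1 array (limma adjusted p of 0.08 to 0.104). Of the 13 epicardial and mesenchymal factors measured 11 were not called (15.4% called, against 6.83% of all genes).

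Hmox1, Fosl1, Procr and Ereg were lower in heart Sca1 cells and had their highest mean in heart c-kit cells, by a margin over heart SP cells that was not tested. Hmox1, which encodes the haem-degrading enzyme haem oxygenase, had 5630, 7308 and 6761 on the heart Sca1 arrays, against 17229 and 32482 on the heart SP arrays (-2.27 ± 0.54, limma adjusted p = 0.0243). Fosl1, an AP-1 subunit, had 979, 2895 and 1107 on the heart Sca1 arrays, against 4879 and 7297 on the heart SP arrays (-2.69 ± 0.67, limma adjusted p = 0.0288). Procr, the endothelial protein C receptor that also marks blood stem cells, had 2529, 1059 and 1630 on the heart Sca1 arrays, against 5496 and 8993 on the heart SP arrays (-2.74 ± 0.58, limma adjusted p = 0.0144). All 3 genes separated the groups on the raw spots too, with SP above heart Sca1.

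Ereg, a ligand of the EGF receptor, followed the same order, with 210, 528 and 255 on the heart Sca1 arrays, against 816 and 1493 on the heart SP arrays (-3.00 ± 0.76, limma adjusted p = 0.032). The mean level of Hmox1 was 8.19 in heart SP cells and 9.49 in heart c-kit cells, and that of Fosl1 6.33 in heart SP cells and 8.15 in heart c-kit cells. Ereg had 4.37 in heart SP cells and 5.19 in heart c-kit cells, and Procr had 6.54 in heart SP cells and a higher mean in heart c-kit cells. These calls were close to the threshold. Procr lost its call without heart Sca1 replicate 2 (0.0547), and the other 3 each lost theirs without 4 of the 5 arrays, with an adjusted p of 0.0594 to 0.0838 for Hmox1, 0.0712 to 0.0962 for Fosl1 and 0.0706 to 0.0969 for Ereg. Of the lists they belong to, Hmox1 and Gclc, the catalytic subunit of glutathione synthesis, were lower among 18 NRF2 and glutathione genes. Fosl1 and Egr3 were lower among 23 immediate early genes, with no member of either list higher. The shares called were 11.1% and 8.70%, against 6.83% of all genes. Egr3 overlapped between the groups on the raw spots, at 34, 79 and 51 against 90 and 66 on the heart SP arrays, so its call arose with the scaling.

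Of 16 fatty acid oxidation genes, 3 were higher in heart Sca1 cells, none lower and 13 not called, with a median of 0.48. That is 18.8% called, against 6.83% of all genes. Cpt2, which reforms acyl-CoA inside mitochondria, had 4061, 1895 and 3638 on the heart Sca1 arrays, against the fill value and 80 on the heart SP arrays (6.61 ± 1.47, limma adjusted p = 0.0179). Acsl1, which activates long-chain fatty acids, had 1024, 247 and 389 on the heart Sca1 arrays, against 8 and 3 on the heart SP arrays (4.69 ± 1.03, limma adjusted p = 0.0167). Both separated the groups, and both were lost under some single omissions, at 0.0535 to 0.127 for Cpt2 (heart Sca1 replicates 1 and 3, SP replicate 1) and 0.0592 and 0.102 for Acsl1 (heart Sca1 replicate 1, SP replicate 2). Slc25a20, the carnitine carrier, was called at 2.78 ± 0.77 (limma adjusted p = 0.0453), but its second probe gave 1.62 and averaging the probes ended the call.

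**Figure D4:**
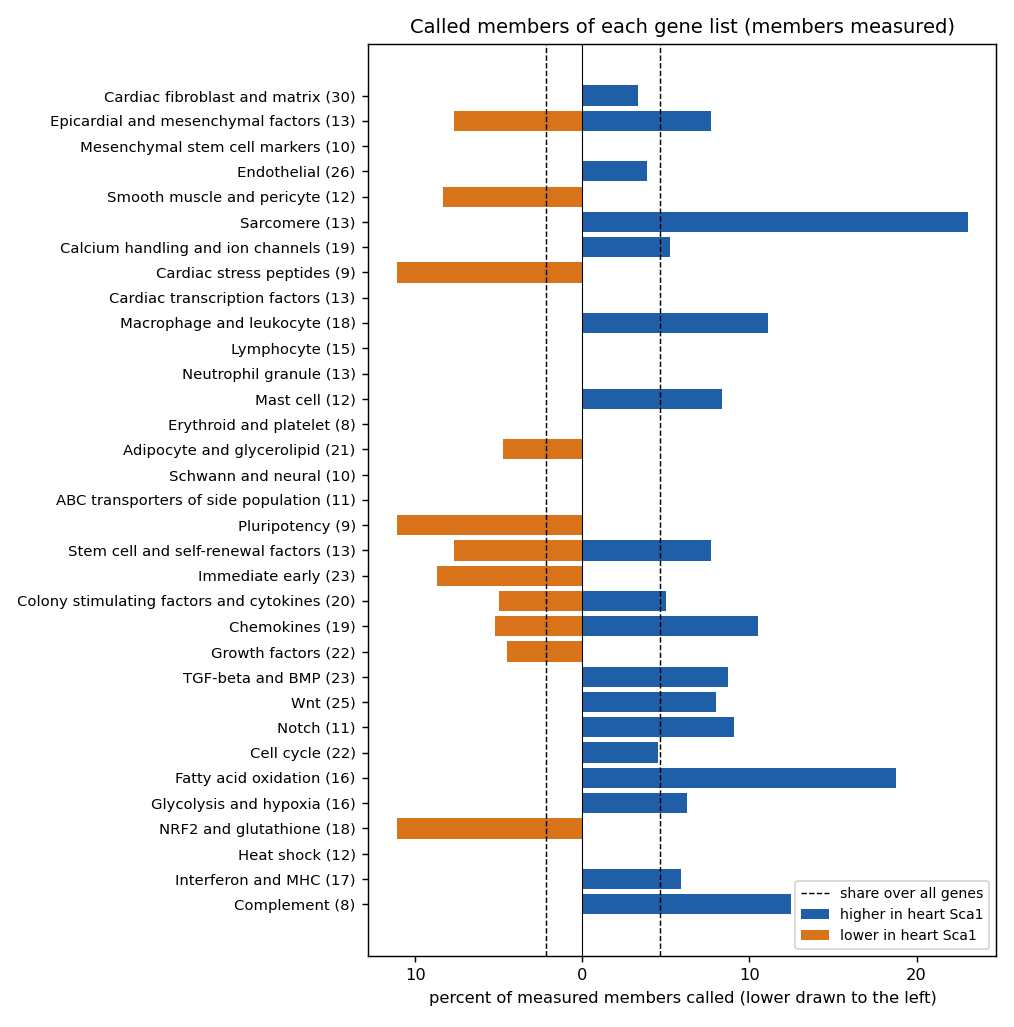
Percent of measured members called higher (right) or lower (left) in heart Sca1 cells for each of 33 gene lists, with the number of members measured in brackets and dashed lines at the shares over all genes, 4.62% higher and 2.21% lower. Most bars stand for 1 to 3 genes, and 8 lists have no called member.

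Over the 33 lists, 39 of 513 measured genes were called (7.60%, against 6.83% of all genes), 26 higher and 13 lower, so the listed genes were called at about the rate of the array as a whole. Relative to the median of all genes, the median of 27 lists kept its sign under quantile normalisation, aligned medians and cyclic loess, 12 above and 15 below. The deposited values add nothing here, since they differ from the aligned ones by a constant per array. Among those above were the macrophage (1.79 to 2.43), ABC transporter (0.66 to 1.18), endothelial (0.98 to 1.54) and sarcomere lists (0.73 to 1.47). For the macrophage and endothelial lists heart Sca1 replicate 3 stood above the other 4 arrays, which a change of scale does not address. Among those below were the neutrophil granule (-1.55 to -0.83), cardiac transcription factor (-0.95 to -0.45) and NRF2 and glutathione lists (-0.49 to -0.43). The other 6 lists, of fibroblast, TGF-beta and BMP, Wnt, immediate early, glycolysis and heat shock genes, changed sign. The 8 lists without a called member were those of mesenchymal stem cell markers, cardiac transcription factors, lymphocytes, neutrophil granules, erythroid cells and platelets, Schwann and neural cells, ABC transporters and heat shock proteins. Of markers of blood cells, Cd79a of B cells had 62, 37 and 38 on the heart Sca1 arrays, against 20 and 29 on the heart SP arrays, and Alas2 of red cell precursors had 17, 120 and 91 against 8 and 29 on the heart SP arrays. Neither was called, and against its array's median Cd79a was low on the heart Sca1 arrays and slightly high on the heart SP arrays, while Alas2 was high on 1 array of each group. Acta2 and Rgs5, markers of smooth muscle and pericytes, were bright in both and not called, Acta2 with 2334, 2174 and 4464 on the heart Sca1 arrays, against 4028 and 2935 on the heart SP arrays. Tyrobp, Hbb-b1, Myh6, Myl2 and Myh11 were not analysed here.

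Beyond the lists, the genes higher by the widest margin had almost no SP signal. The 12 with the highest differences had spots of 218 to 6604 on the heart Sca1 arrays, against 1 to 20 on the heart SP arrays, and differences of 7.50 to 9.49. With values below the 50th percentile set to it, the same 12 came to 1.36 to 5.78, and 8 were still called. Ro60, an RNA-binding protein of small cytoplasmic RNAs, led them with 4909, 6604 and 5756 against 3 and 2 on the heart SP arrays (9.49 ± 1.04, limma adjusted p = 0.000208). Slc1a3, a glutamate transporter, had 1450, 1093 and 1747 against 1 and 2 on the heart SP arrays (8.90 ± 1.17, limma adjusted p = 0.000698). The 12 lowest, from which Gpd1 is left out for its spot at the ceiling, ran from -7.93 to -4.53, led by Csf2, and 10 of them were still called with the raised values.

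A set of 42 genes, picked after their values were seen, was called higher under the reported fit and all 18 other settings planned, against 2 lower, Gpd1 and Tkfc. Their differences were 3.76 to 9.49, with heart Sca1 spots of 481 to 40237 and SP spots of 1 to 261. Hsd11b1, which regenerates active glucocorticoid, was the brightest, with 30602, 40237 and 25274 on the heart Sca1 arrays, against 45 and 261 on the heart SP arrays (6.25 ± 1.00, limma adjusted p = 0.00277). Cebpd, a transcription factor of fat cell and acute phase programmes, had 14409, 5763 and 9457 on the heart Sca1 arrays, against 74 and 68 on the heart SP arrays (5.08 ± 0.80, limma adjusted p = 0.00264). Both had bright heart Sca1 spots and SP spots well above the floor, so their differences did not move when low values were raised (6.25 and 5.08).

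Others of the 42 were Kcnk2, a mechanically gated potassium channel, with 3513, 3386 and 2794 on the heart Sca1 arrays, against 8 and 11 on the heart SP arrays (6.40 ± 0.85, limma adjusted p = 0.000724), and Ccbe1, a matrix protein of lymphatic growth, with 2071, 2986 and 1761 against 9 and 10 on the heart SP arrays (5.80 ± 0.60, limma adjusted p = 0.000141). Creb3l1, an endoplasmic reticulum transcription factor of collagen secretion, differed by 5.21 ± 0.66 (limma adjusted p = 0.000536) and Sox5, a transcription factor of cartilage, by 4.87 ± 0.81 (limma adjusted p = 0.00392). The level of Kcnk2 in heart Sca1 cells, 4.85 ± 0.05, was also above that of each of the other 4 groups, whose means were -2.23 to 0.69, whereas Ccbe1 had 4.28 ± 0.35 in heart Sca1 cells and 4.74 ± 0.17 in MSC.

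**Figure D5:**
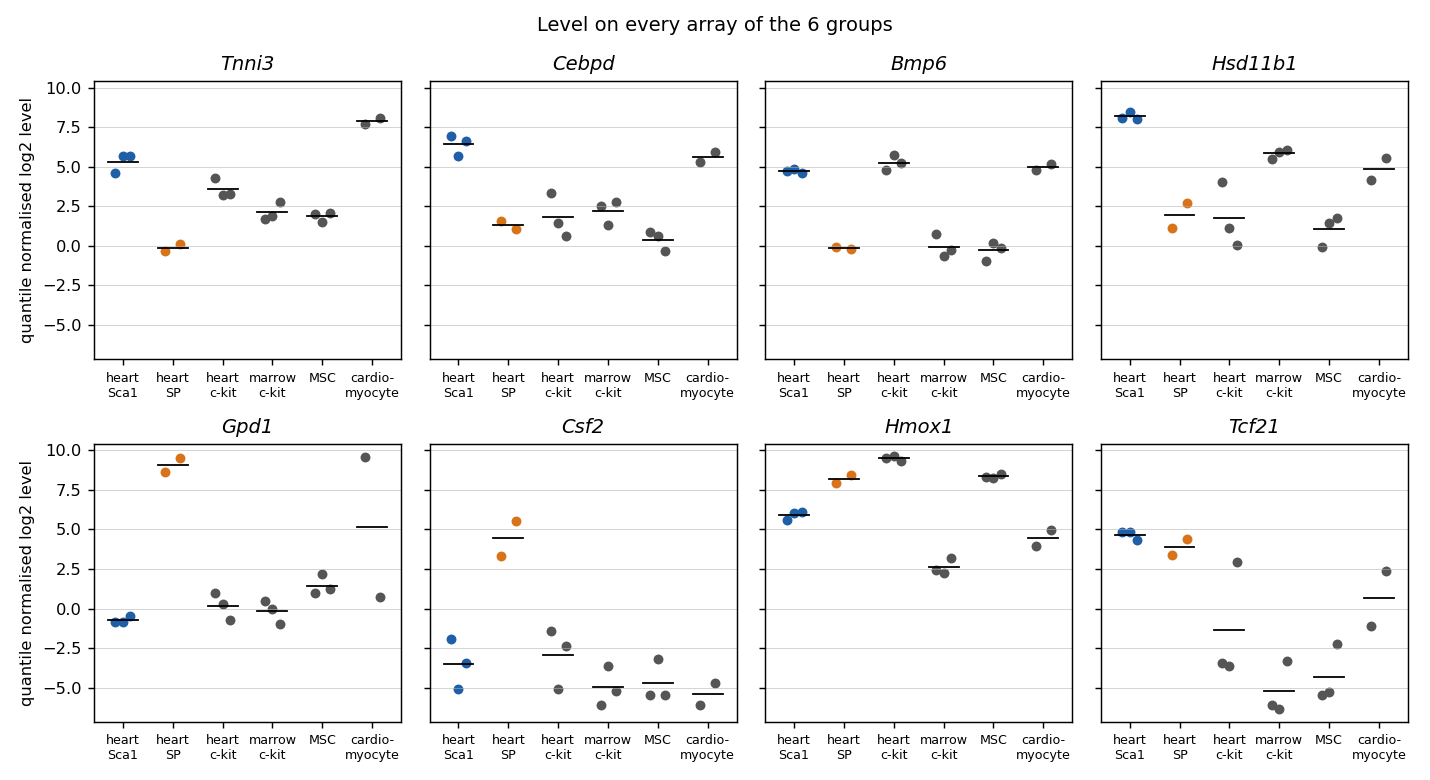
Quantile normalised log2 level of 8 genes on every array of the 6 groups, with the group mean as a line. Tnni3 is highest in cardiomyocytes and lowest in heart SP cells, Csf2 stands off the floor on the 2 heart SP arrays alone, and Hmox1 is highest in heart c-kit cells, at a mean of 9.49.

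The 11 arrays outside the comparison showed which side of a called difference was the more usual. For 1007 of the 1210 called genes (83.2%), the mean of the other 4 groups lay nearer to heart Sca1 than to heart SP cells. The share was the same for genes higher in heart Sca1 cells (682 of 819, 83.3%) and for genes lower there (325 of 391, 83.1%), and it was 82.3% with medians aligned and 81.7% with the deposited values. Over all 17710 genes it was 58.9%. The called genes were selected for a wide gap between the groups, and the SP mean is that of fewer and less similar arrays, so the higher share among them is a description with no test. The SP arrays were dimmer and less alike than the heart Sca1 arrays, and a property of SP cells and one of these arrays cannot be told apart here.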

How the data were processed

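The table holds log2 values per probe of Cy5 spot intensities for 16 two-channel arrays, of which only Cy5 was used, per the labels and series text. Per the labels' protocols, a WT-Ovation Pico system turned total RNA into amplified cDNA, to which a Cy5 ester was coupled. The deposited log2 values were centred near 0 on all but 1 array; the sources used here do not state the scanner settings, the background correction or how fill values arose. Undoing the log and the centring gave the spot intensities printed: below 200 and with fill values left out, 100% came out whole within 0.005 on each array. Detection flags were not used here, and precision is limited by the number of arrays.

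All 26423 probes were quantile normalised over 16 arrays. Names came from the platform annotation updated through a RefSeq table (GRCm38.p6): 18213 probes matched a current symbol, 2126 a synonym, 38 were ambiguous and 6046 had none. This gave 17710 genes, 15437 with 1 probe. For the 2273 with several, the probe of highest mean stands for the gene. limma 3.58.1 (R 4.3.3) fitted 6 group means to the 16 arrays, with the contrast heart Sca1 minus heart SP, eBayes (prior degrees of freedom 3.81) and Benjamini-Hochberg adjustment over 17710 genes. SDs and intervals (95%) refer to arrays.

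Named genes were the gate genes and given markers, the 12 highest and 12 lowest called genes with no spot at the fill value or within 5% of the ceiling, up to 3 called members per list (the largest differences, or 1 where none was called) and cell type markers. Members and lists were chosen with earlier results of these data known. The alternatives are those shown in the plot of settings. Of the intensities within 5% of the ceiling, only those of Gpd1 touch a gene named.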

Additional observations from a re-analysis of the deposited data

How the results depend on the processing

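Limits: 3 and 2 arrays were compared, the SP arrays were dim and poorly alike, and the shared spread is taken from 6 groups, so that fits of the 5 arrays alone called far fewer genes. The total of 1210 called genes moved to 336 with array weights per group, 176 with only the 5 arrays, 231 with these quantile normalised among themselves, 2159 with unscaled spot intensities and 799 without heart Sca1 replicate 3 and with values raised to the 50th percentile, the last 2 settings chosen after seeing the data. In the same order the higher genes (819) numbered 316, 161, 209, 2144 and 427, and the lower genes (391) 20, 15 and 22 and, with unscaled intensities, 15. The higher genes also moved to 472 with medians aligned and 516 with only genes above the fill value on the 5 arrays. The lower genes moved to 1230 with medians aligned, 175 with deposited values, 801 with values raised to the 30th percentile and 241 with trend and robust moderation. Leaving out 1 array gave 556 to 1412 called genes, 439 to 1068 higher and 117 to 344 lower. The total called fell in the fits without 1 heart Sca1 array and rose in the fits without 1 SP array. The latter leave a single SP array and hold no spread among SP arrays. The cause of these moves was not tested. With the replicate number as a block, 870 genes were called, 638 higher and 232 lower, but the numbers do not pair the arrays (correlations of deviations -0.01 and 0.02). Called members of the gene lists (39) numbered 12 with array weights, 7 and 9 with the 5 arrays alone and 23 to 44 when 1 array was left out. No named gene that was called changed sign under any setting, which for the 42 higher and 2 lower genes called under all planned settings follows from how they were picked.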

Other observations

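Of 575 olfactory and vomeronasal receptor genes, which are not known as products of heart cells, 25 were lower in heart Sca1 cells (4.35%, against 2.21% of all genes) and 4 higher (0.70%, against 4.62%). The median spot of the 25 was 4 on the heart Sca1 arrays and 13 on the heart SP arrays, on which the array medians were 100 to 109 and 15 to 22. With values below the 50th percentile set to it, 23 receptor genes were lower (4.0%, against 3.24% of all genes), closer to the share over all genes. Vmn1r51, a receptor of this family, was among the 42 genes higher under every setting, with spots of 1006, 1269 and 698 on the heart Sca1 arrays, against 10 and 11 on the heart SP arrays (4.23 ± 0.81, limma adjusted p = 0.00854).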
